A study of Mus musculus with 8 samples.

Results

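The caveolae genes measured here were the 7 genes of the caveolar coat and its curvature and neck proteins, Cav1, Cav2, Cavin1 (also Ptrf), Cavin2 (Sdpr), Cavin3 (Prkcdbp), Ehd2 and Pacsin2. They were chosen by name and not by a rule on measured values, though earlier results of these data were known. The Illumina MouseRef-8 v2.0 array names 16593 genes, and 10 of its 25697 probes belong to the caveolae genes. The cells were mouse bone marrow mesenchymal stem cells (MSCs), a purchased culture of multipotent stromal cells at passage 6, grown in αMEM with 10% FCS. They were transfected with lipid reagent and either a Myc-tagged L63RhoA plasmid (L63RhoA, 4 arrays) or the empty vector (EV, 4 arrays), with 4 independent experiments stated. The sample records give the RNA as taken at 48 h, whereas the description of the design gives 3 days. No strain, sex or animal age was given in the sources used here. L63RhoA is a constitutively active form of the small GTPase RhoA, which drives actin stress fibres and contraction. The transfection was transient and each array averaged transfected and untransfected cells, so fewer cells with a transcript and less of it per cell cannot be told apart.

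Caveolae are small flask-shaped pits of the plasma membrane. Caveolins insert into the inner leaflet and make the pit, cavins form a coat over it from the cytosol side, PACSIN2 bends the membrane, and EHD2 sits as a ring at the neck. The pits lie along actin stress fibres and flatten when the membrane is stretched. They are abundant in mesenchymal, endothelial, muscle and fat cells.

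Signals came from 8 arrays, with a mean signal of 320.1 to 349.6 in L63RhoA and a wider 274 to 377 in EV. The lowest means were those of EV replicates 2 and 4, at 274 and 292. The largest pattern within the groups held 48.2% of the variance left after the group means, with scores of -17.4 in L63RhoA replicate 1 and 4.56 to 6.76 in the other L63RhoA arrays. The EV arrays split, with -10.8 and -11.7 in replicates 2 and 4 against 4.94 and 17.6 in replicates 1 and 3. Of 10 marker genes of MSCs with a probe, 8 were detected on all 8 arrays, among them Pdgfra, Eng and Vcam1, while Thy1 and Lepr were detected on none. The only probe for Rhoa itself was detected on 0 of 8 arrays (signal 92.2 to 101 in L63RhoA and 84.8 to 96.7 in EV), so this probe gave no check of the transfection. Detection here means a deposited detection p under 0.05.

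The transcript starts of 6 of the 7 caveolae genes were matched in RefSeq (assembly GRCm38.p6), and Cavin3 had no entry. Where a gene had several starts, the outermost was taken. The 250 bases before the start are printed for Cavin1 and Cavin2, the pair with the clearest differences between the groups, and for Cav1, the founding gene of the coat. Cavin1 lies on the minus strand (window chr11:100970618-100970867), Cavin2 on the plus strand (chr1:51288876-51289125) and Cav1 on the plus strand (chr6:17306085-17306334). Capitals mark a CCAAT box (CCAAT, or ATTGG on the other strand) and a TEAD motif (GGAATG, or CATTCC on the other strand).
Cavin1: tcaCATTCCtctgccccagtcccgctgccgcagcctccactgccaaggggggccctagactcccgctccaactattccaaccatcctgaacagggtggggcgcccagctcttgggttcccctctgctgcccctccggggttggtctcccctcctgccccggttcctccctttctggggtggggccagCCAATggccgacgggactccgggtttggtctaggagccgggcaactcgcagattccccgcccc
Cavin2: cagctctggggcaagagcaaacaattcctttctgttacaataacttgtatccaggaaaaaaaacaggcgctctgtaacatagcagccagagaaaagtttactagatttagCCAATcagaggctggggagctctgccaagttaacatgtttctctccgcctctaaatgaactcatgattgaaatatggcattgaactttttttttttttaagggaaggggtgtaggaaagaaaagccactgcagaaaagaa
Cav1: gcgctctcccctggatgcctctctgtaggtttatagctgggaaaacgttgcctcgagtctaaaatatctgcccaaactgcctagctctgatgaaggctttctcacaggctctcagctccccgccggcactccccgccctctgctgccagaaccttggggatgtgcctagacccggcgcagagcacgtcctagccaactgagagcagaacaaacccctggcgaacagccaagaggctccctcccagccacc
A CCAAT box began 63 bases before the start of Cavin1 and 140 bases before that of Cavin2, and was absent from the Cav1 window. Over the matched caveolae genes, 5 of 6 windows held a CCAAT box, against 33.8% of the 32851 mouse promoter windows of the same length. The TEAD motif occurred in 1 of 6, that of Cavin1, against 12.6% of all windows, and the CArG box, the site of serum response factor, in 0 of 6, against 1.47%. The shares of all windows count every listed start, so a gene with several starts enters them more than once. The motifs did not overlap. GC content ran between 40.4% in Cavin2 and 67.6% in Cavin1. Cav1 and Cav2 are neighbours on their chromosome, with 0 genes between them in that annotation.

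The caveolae genes differed between L63RhoA and EV by at most 1.29-fold after the background correction used here. At an adjusted p under 0.05 in limma, 0 of the 7 genes were called, against 0.706% of the 8360 genes tested (0.383% higher and 0.323% lower in L63RhoA). The methods' t-test, the study's general test for a pair of groups, also called 0 (0.323% of all genes). At an unadjusted p under 0.05 limma and the methods' t-test each picked 2 (24.4% and 19.3% of all genes). Both were lower in L63RhoA, as were 10.7% of all genes at that unadjusted p in limma. At the 20% false discovery rate that the study's array methods use (adjusted p under 0.20), 2 caveolae genes were lower in L63RhoA, Cavin1 and Cavin2, and 0 were higher, against 10.4% of all genes lower and 13.1% higher. In all, 23.6% of genes passed that threshold, so 2 of 7 is near the background. The log2 fold change was below 0 for 5 of the 7 caveolae genes, against 47.8% of all genes, and its median was -0.15, against 0.01 over all genes.

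**Figure D1:**
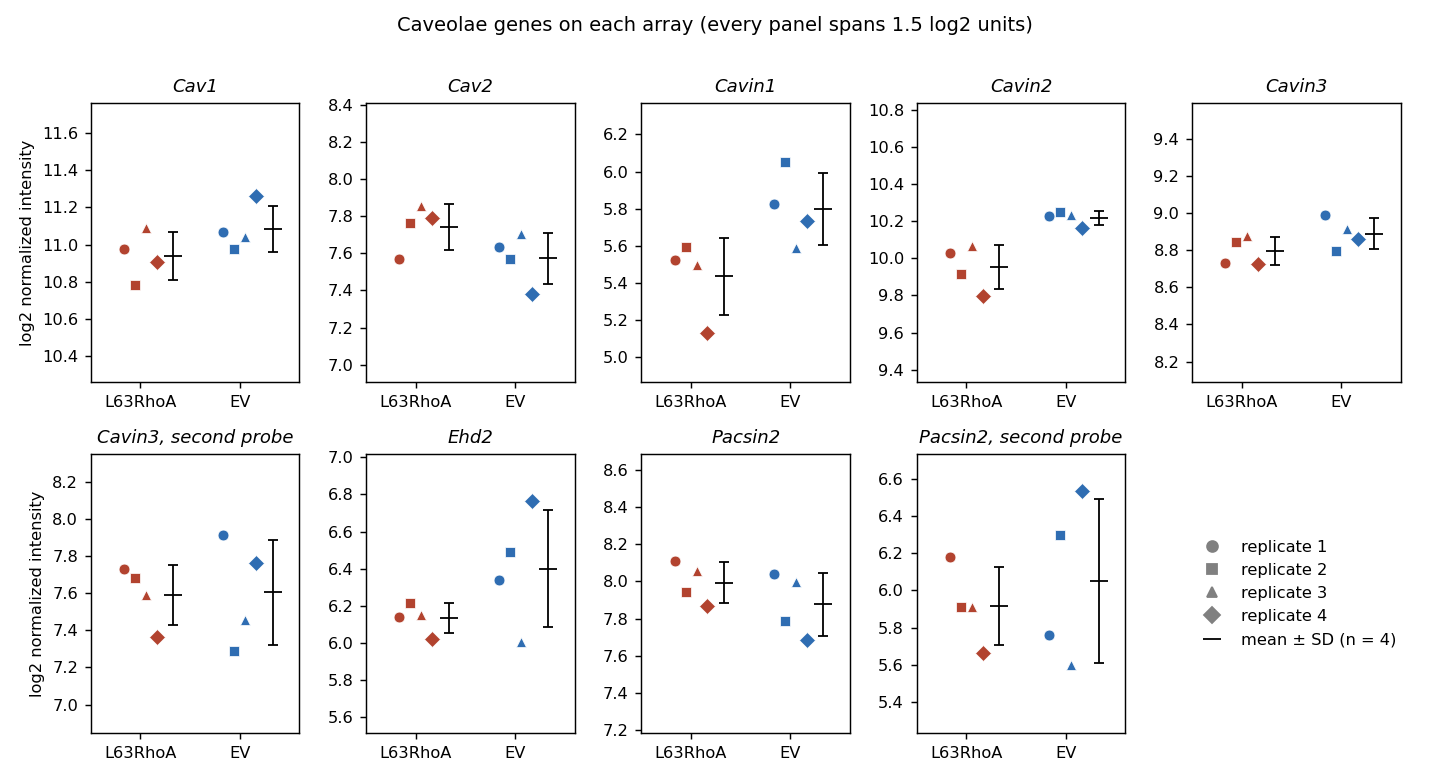
Normalized log2 signal of each tested probe of the caveolae genes on each array, 1 panel a probe, with L63RhoA (4 arrays, red) left of EV (4 arrays, blue); points are arrays, with a shape for each replicate number, and the bar and whisker are the mean and SD. Cavin2 is the gene whose groups do not overlap, with means of 9.95 in L63RhoA and 10.22 in EV.

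Among the cavins, Cavin1 encodes the coat protein without which caveolae do not form. Its normalized log2 signal was 5.53, 5.59, 5.50 and 5.13 in L63RhoA replicates 1 to 4, against 5.83, 6.05, 5.59 and 5.74 in EV. The lowest array was L63RhoA replicate 4 and the highest EV replicate 2, and the groups touched where L63RhoA replicate 2 and EV replicate 3 stood at the same rounded level. The mean was 5.44 ± 0.21 in L63RhoA and 5.80 ± 0.19 in EV (SD, n = 4 each), a log2 fold change of -0.36 (SE 0.13, 95% confidence interval -0.65 to -0.08) with an adjusted p of 0.15 in limma. In linear terms Cavin1 was 1.29-fold lower in L63RhoA (interval 1.05 to 1.57). Without the added background correction, as in the processed values of the authors, its log2 fold change was -0.14 (adjusted p = 0.18 in limma). This was a dim probe: its deposited signal was 110.3 to 131 in L63RhoA and 123 to 134 in EV, on arrays whose median signal over all probes was 99.5 to 104 in L63RhoA and 91.2 to 103 in EV. Of all genes tested, 14.2% had a larger change in size.

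Cavin2 encodes a coat protein that binds phosphatidylserine and helps to bend and extend the caveolar membrane. Its log2 signal was 10.03, 9.92, 10.06 and 9.80 in L63RhoA replicates 1 to 4, and 10.22, 10.25, 10.23 and 10.16 in EV. Every L63RhoA array lay below every EV array, and the EV arrays lay close together while those of L63RhoA were spread. Cavin2 was the 1 caveolae gene of 7 with groups apart, against 9.93% of all genes with groups apart and 4.72% with groups apart and L63RhoA lower. The mean was 9.95 ± 0.12 in L63RhoA and 10.22 ± 0.04 in EV (SD, n = 4 each), a log2 fold change of -0.27 (SE 0.09, interval -0.46 to -0.07) with an adjusted p of 0.13, or 1.20-fold lower in L63RhoA (interval 1.05 to 1.38). The separation appeared only after normalization. In the deposited signal, L63RhoA ran between 942 and 1228 and EV between 980.5 and 1534, with the 2 low EV values on the dimmer arrays, replicates 2 and 4.

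Cavin3, a cavin that binds protein kinase C delta, showed no call. Its brighter probe read 8.73, 8.84, 8.87 and 8.73 in L63RhoA, against 8.99, 8.79, 8.91 and 8.86 in EV. The groups overlapped, with EV replicate 2 below 2 of the L63RhoA arrays. The log2 fold change was -0.09 (SE 0.09, interval -0.28 to 0.10, adjusted p = 0.51 in limma), and its second probe gave -0.01 (adjusted p = 0.97 over probes). Both Cavin1 and Cavin2 estimates lay further below 0, but differences between cavins were not tested.

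The caveolins pointed opposite ways without a call for either. Cav1, the structural protein of the pit, had log2 signals of 10.97, 10.78, 11.09 and 10.90 in L63RhoA, against 11.07, 10.97, 11.04 and 11.26 in EV. Replicate 3 of L63RhoA lay above 3 of the EV arrays, so the groups overlapped. The mean was 10.94 ± 0.13 in L63RhoA and 11.09 ± 0.12 in EV (SD, n = 4 each), with a log2 fold change of -0.15 (SE 0.10, interval -0.37 to 0.07, adjusted p = 0.37 in limma).

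Cav2, which joins Cav1 in mixed oligomers, read 7.57, 7.76, 7.86 and 7.79 in L63RhoA and 7.63, 7.57, 7.70 and 7.38 in EV. Replicates 2 to 4 of L63RhoA lay above every EV array, and replicate 1 lay below 3 of them. The log2 fold change was 0.17 (SE 0.10, interval -0.05 to 0.40, adjusted p = 0.31 in limma). A second Cav2 probe was detected on 0 of 8 arrays, with signals of 89.5 to 91.8 in L63RhoA and 82.5 to 97.5 in EV, and was not tested. The level of Cav2 relative to Cav1 within an array, a contrast chosen after the values were seen, was -3.19 ± 0.17 in L63RhoA and -3.51 ± 0.25 in EV on the log2 scale (SD, n = 4 each), with overlapping groups and no test. The probes of both genes have unknown efficiencies, so only the shift between the groups can be read from it. Other pairs among the caveolins and cavins were compared in the same way. The groups overlapped in every pair, and Cav2 relative to Cav1 had the largest shift.

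**Figure D2:**
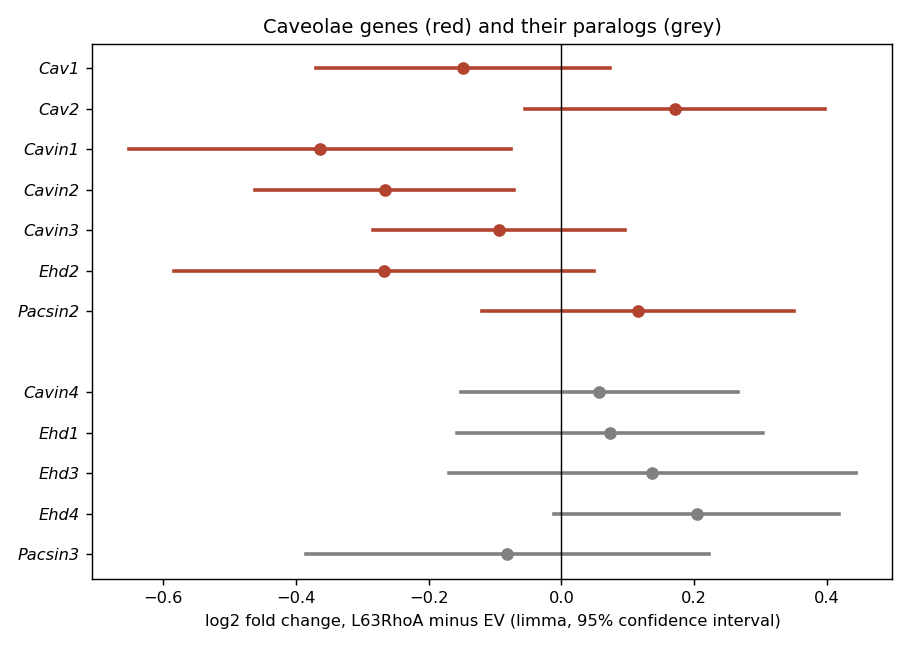
Log2 fold change (L63RhoA minus EV) of each caveolae gene (red) and each tested paralog (grey) with its 95% confidence interval from limma; the vertical line at 0 is no change. The intervals of Cavin1 (-0.65 to -0.08) and Cavin2 (-0.46 to -0.07) lie below 0, and those of the other genes include it.

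Of the membrane-shaping proteins, Ehd2 encodes an ATPase that holds caveolae at the cell surface. Its log2 signal was 6.14, 6.22, 6.15 and 6.02 in L63RhoA, against 6.34, 6.49, 6.01 and 6.76 in EV. The L63RhoA arrays lay close together, while EV replicate 3 was the lowest of all 8 arrays and EV replicate 4 the highest. The mean was 6.13 ± 0.08 in L63RhoA and 6.40 ± 0.32 in EV (SD, n = 4 each), with a log2 fold change of -0.27 (SE 0.14, interval -0.58 to 0.05, adjusted p = 0.27 in limma). The estimate rested on single EV arrays and on the background step, since it was -0.15 without EV replicate 4, -0.04 without EV replicates 2 and 4, -0.40 without EV replicate 3, and -0.14 without the added background correction.

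Pacsin2 encodes an F-BAR protein that bends membranes. Its brighter probe read 8.11, 7.94, 8.05 and 7.87 in L63RhoA and 8.04, 7.79, 7.99 and 7.68 in EV. The groups overlapped, and EV replicates 2 and 4 were the lowest. The log2 fold change was 0.12 (SE 0.11, interval -0.12 to 0.35, adjusted p = 0.51 in limma). Its second probe read 6.18, 5.91, 5.91 and 5.66 in L63RhoA and 5.76, 6.30, 5.60 and 6.54 in EV. Here EV replicates 2 and 4 were the highest of all 8 arrays, the reverse of their place on the brighter probe. The second probe gave a log2 fold change of -0.13 (SE 0.20, adjusted p = 0.70 over probes), so the arrays gave no direction for Pacsin2.

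The calls for Cavin1 and Cavin2 at adjusted p under 0.20 depended on single arrays. With each array left out in turn, the log2 fold change of Cavin1 lay between -0.43 and -0.26 (adjusted p 0.059 to 0.33) and that of Cavin2 between -0.30 and -0.22 (adjusted p 0.057 to 0.30). Both calls were lost without L63RhoA replicate 2, 3 or 4 or EV replicate 1, 2 or 4, where 1.09% to 13.3% of all genes passed. The number of caveolae genes that passed was 3 without L63RhoA replicate 1 (Cav2, Cavin1 and Cavin2), against 43.2% of all genes. It was 4 without EV replicate 3 (Ehd2 as well), against 38.5% of all genes. Counts over all genes moved as well, up to 3538 genes without L63RhoA replicate 1 and down to 90 without L63RhoA replicate 2, against 1971 with all arrays. Without EV replicates 2 and 4, the dimmer arrays, 0 caveolae genes passed, against 0.54% of all genes.

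**Figure D3:**
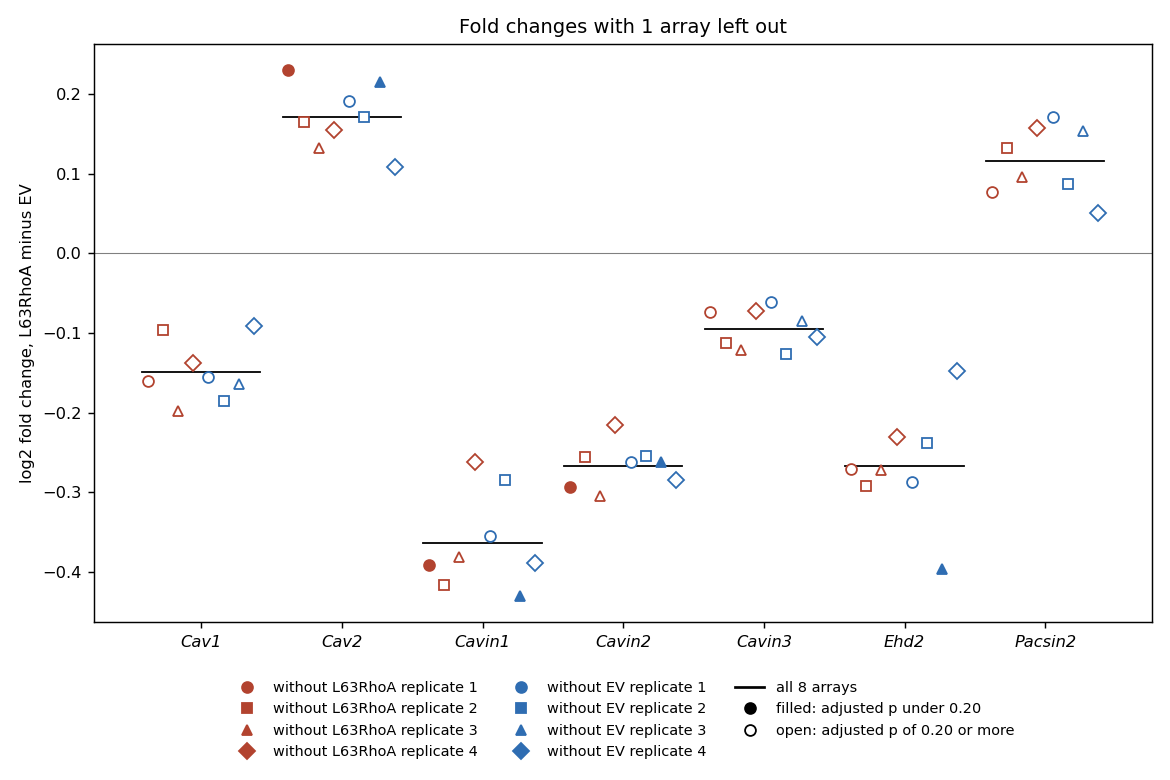
Log2 fold change (L63RhoA minus EV) of each caveolae gene with 1 array left out, by the array left out (colour and shape); black lines are the values with all 8 arrays, and filled points have an adjusted p under 0.20. Cavin1 stays between -0.43 and -0.26 and Cavin2 between -0.30 and -0.22.

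Genes related to the caveolae genes were counted in lists of the same comparison, with 5 to 19 genes tested in each. At an adjusted p under 0.05, 0 genes of any list passed in limma or in the methods' t-test (0.706% and 0.323% of all genes). Those at an unadjusted p under 0.05 numbered 0 to 6 a list in limma and 1 to 6 in the methods' t-test (24.4% and 19.3% of all genes). Of 7 paralogs, 5 were tested and 0 passed an adjusted p of 0.20, against 23.6% of all genes, with a median log2 fold change of 0.07. Ehd4, another EHD ATPase, had the smallest p at 0.20 (SE 0.10, adjusted p = 0.22). Cavin4, a cavin best known from striated muscle, gave 0.06 (SE 0.09, adjusted p = 0.73). Its probe was detected on all 8 arrays, with log2 means of 8.63 ± 0.05 in L63RhoA and 8.57 ± 0.15 in EV, while the muscle caveolin Cav3 was detected on 0.

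Of 14 filamins, kinases and GTPases that act on caveolae, 7 were tested and 3 were lower in L63RhoA at an adjusted p under 0.20, with 0 higher, against 10.4% of all genes lower and 13.1% higher, and a median of -0.09. Src, the tyrosine kinase that phosphorylates caveolin-1, was 7.60, 7.10, 7.10 and 7.08 in L63RhoA, against 7.45, 8.33, 7.50 and 8.39 in EV. EV replicates 2 and 4 were far above the other arrays, and the groups overlapped through L63RhoA replicate 1 and EV replicates 1 and 3. The log2 fold change of Src was -0.70 (SE 0.23, adjusted p = 0.12 in limma). Rala, a GTPase that binds filamin A, was lower by -0.25 (SE 0.09, adjusted p = 0.15) with groups apart, and Prkca, the kinase PKCα, which binds the Cavin2 protein, by -0.27 (SE 0.10, adjusted p = 0.16).

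Receptors, channels and enzymes that reside in caveolae showed no common direction. Of 27, 18 were tested, with 2 higher and 1 lower in L63RhoA at an adjusted p under 0.20 (23.6% of all genes in either direction) and a median of -0.0019. The type I TGFβ receptor gene Tgfbr1 was 9.34, 9.16, 9.28 and 9.25 in L63RhoA, against 9.03, 8.99, 9.12 and 8.89 in EV. Every L63RhoA array was above every EV array, with a log2 fold change of 0.25 (SE 0.09, adjusted p = 0.14 in limma). The calcium pump gene Atp2b4 was higher by 0.32 (SE 0.10, adjusted p = 0.12), and Cd44, the hyaluronan receptor, lower, with a log2 fold change of -0.33 (SE 0.14, adjusted p = 0.17). The groups of both overlapped. Atp2b4 was dim, with log2 means of 4.81 in L63RhoA and 4.49 in EV. The Cav2 probe that was detected on no array had means of 4.19 in L63RhoA and 4.30 in EV.

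The clathrin coat, the other main route of uptake, had calls in both directions and near the share over all genes. Of 29 genes, 19 were tested, with 3 higher and 2 lower at an adjusted p under 0.20, against 23.6% of all genes called, and a median of -0.03. Epn2, an epsin that bends the membrane in clathrin pits, was 8.22, 8.61, 8.48 and 8.55 in L63RhoA and 7.96, 7.62, 8.20 and 7.67 in EV. Every L63RhoA array was above every EV array, with a log2 fold change of 0.60 (SE 0.14, adjusted p = 0.084 in limma). Sh3gl1, an endophilin, was higher by 0.65 (SE 0.20, adjusted p = 0.12), while Ap2b1, an AP2 adaptor subunit, had -0.49 (SE 0.15, adjusted p = 0.11) and Snx9, a sorting nexin, -0.56 (SE 0.21, adjusted p = 0.15). The groups of Sh3gl1, Ap2b1 and Snx9 overlapped. For Sh3gl1, EV replicates 2 and 4 were the lowest of all arrays, at 6.67 and 6.37.

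Of 14 flotillins, relatives and tetraspanins, which organise other membrane domains, 13 were tested, with 2 higher and 1 lower at an adjusted p under 0.20, a share like the 23.6% over all genes, and a median of 0.07. Flot1, a flotillin, was higher by 0.24 (SE 0.10, adjusted p = 0.17) and Erlin1 by 0.39 (SE 0.14, adjusted p = 0.14), while the tetraspanin Cd82 had -0.43 (SE 0.13, adjusted p = 0.12).

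**Figure D4:**
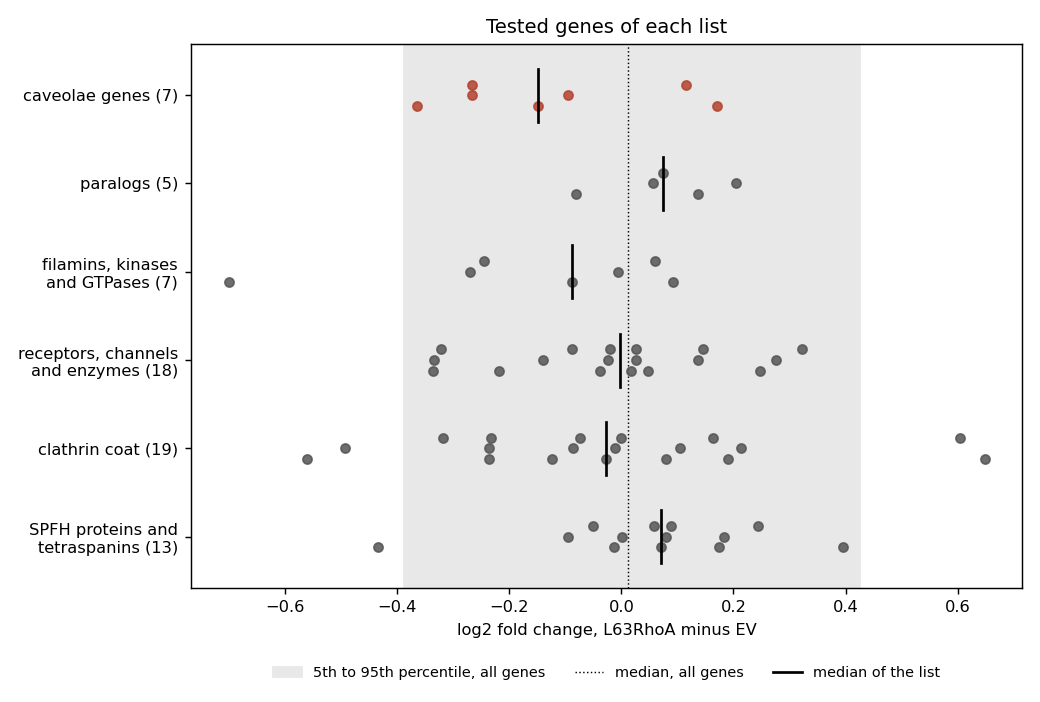
Log2 fold change (L63RhoA minus EV) of the tested genes of each list, with the number tested beside its name; points are genes, black bars list medians, the grey band the 5th to 95th percentile of all genes (-0.39 to 0.43) and the dotted line their median. The caveolae genes lie inside the band, and Src, Ap2b1, Snx9, Epn2, Sh3gl1 and Cd82 lie outside it.

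Other cell types rich in caveolae were checked by their markers. The endothelial genes Cdh5, Tie1 and Emcn, the adipocyte genes Adipoq, Plin1, Fabp4 and Cidec and the muscle genes Myh11, Cnn1, Myod1 and Myog were detected on 0 of 8 arrays, and of 6 haematopoietic markers with a probe 5 were detected on none, Ptprc among them. Other markers of these lists were detected, with Vwf, Lpl, Pparg, Des and Cd34 on all 8 arrays, Kdr on 5, Tek on 4, Pecam1 on 2 and Tagln on 1. The summed deposited signal of the 7 endothelial markers was 708 to 781 in L63RhoA and 637 to 711 in EV, that of the 6 adipocyte markers 787 to 847 in L63RhoA and 635 to 810.4 in EV, and that of the 6 muscle markers 573 to 603 in L63RhoA and 516 to 603 in EV. These sums were not normalized and include probes detected on no array, so the brightness of each array enters them. Lpl, lipoprotein lipase, was higher in L63RhoA by 0.52 on the log2 scale (adjusted p = 0.042 in limma). Tek, an endothelial receptor, was detected on 4 arrays, the fewest that the filter admits. Its deposited signal, near the array medians, was 101 to 115 in L63RhoA and 87.6 to 102 in EV, so its difference is not read here. The part of these cell types in the caveolae gene values was not tested.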

How the data were processed

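Each sample was 1 Illumina MouseRef-8 v2.0 array, assigned to L63RhoA or EV from its title and transfection record. The authors deposited linear signal intensities, extracted with GenomeStudio (its version is not given in the sources used here), and a detection p-value for each probe and array. The lowest deposited intensity was 75.2, so background had not been subtracted to 0. A deposited table of the authors' processed values was on the log2 scale and equalled the quantile normalized intensities without a background step, so these count as 1 alternative. The description of the design names a variance stabilizing transformation and quantile normalization in lumi.

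Probes were named through the platform annotation and the RefSeq gene table of GRCm38. Intensities were background corrected, quantile normalized and log2 transformed with neqc (limma 3.58.1, R 4.3.3, offset 16). The background correction enlarged the fold changes of the dim probes of Cavin1 and Ehd2. The 12349 probes detected (p under 0.05) on 4 or more arrays were tested, and the brightest probe stood for a gene. L63RhoA was compared with EV by lmFit and eBayes, two-sided, with Benjamini-Hochberg adjustment over 8360 genes. Other probes were adjusted over 12349 probes. The number of arrays (4 a group) limits the precision. The fit was tested on simulated data.

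The text names all caveolae genes, up to 4 genes of each related list with the smallest p, and the genes most correlated with the caveolae gene of smallest p. Members and lists were chosen with earlier results of these data known. Alternatives were median scaling, no detection filter, the processed values of the authors (no added background step), weights for arrays, and a variance trend with robust eBayes. Others were a replicate block, the mean of a gene's probes, leaving out arrays, and the methods' t-test. That t-test is their general test for a pair of groups, and for the arrays they name permutation p-values. The replicate numbers were not treated as pairs.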

Additional observations from a re-analysis of the deposited data

How the results depend on the processing

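Log2 fold changes of Cav1, Cav2, Cavin1, Cavin2, Cavin3 and Ehd2 kept their sign in the 20 alternatives run, of which 12 altered the value (13 for Cavin3) and the others altered the test alone. Cavin1 lay between -0.43 and -0.14 (adjusted p 0.042 to 0.59, under 0.20 in 10) and Cavin2 between -0.30 and -0.19 (adjusted p 0.041 to 0.65, under 0.20 in 12). Pacsin2 reversed to -0.0086 with the mean of its probes and to -0.026 without EV replicates 2 and 4. Its second probe reversed to 0.24 without those arrays, and ranged between -0.28 and 0.029 with 1 array left out. The second Cavin3 probe reversed to 0.034 with median scaling, and ranged between -0.12 and 0.089 with 1 array left out. The cause was not tested.

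With array weights Cavin1 (-0.40) and Cavin2 (-0.27) passed an adjusted p of 0.05, so 2 caveolae genes were called there and 4 at 0.20, but 2098 and 4114 genes were called over all genes. At 0.05, against 59 genes, 139 were called with a variance trend and robust eBayes together. Without the added background step (the same values as those processed by the authors) 116 were called, and 27 by the methods' t-test. There were 7 without EV replicates 2 and 4, and 17 to 1289 when 1 array was left out. At 0.20, caveolae genes numbered 0 with median scaling, 1 with no detection filter, 1 by the methods' t-test, 0 without EV replicates 2 and 4, and 0 to 4 with 1 array left out, which called 0 at 0.05 each time. Over all genes the counts at 0.20, against 1971, were 559 with median scaling, 989 with no detection filter, 753 by the methods' t-test, 44 without EV replicates 2 and 4, and 90 to 3538 with 1 array left out. Of these calls 55.8% were higher in L63RhoA, and 68.3% with median scaling.

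With the replicate block, 18 genes were called at 0.05. Cavin1 and Cavin2 passed 0.20 there, as did 1321 genes over all genes (15.8%). Deviations of arrays of the same number correlated at -0.10, -0.22, 0.27 and -0.23, and 1 of 8 arrays correlated best with its own number. No call on the caveolae genes changed under the block.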

Other observations

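The 5 genes whose log2 signal followed that of Cavin2 most closely, among 7358 genes detected on all 8 arrays, were Mfsd1, Mrps23, H2-Q8, Scg5 and Mcts1, with Pearson correlations of 0.98, 0.97, 0.96, 0.96 and 0.96 over the 8 arrays. The arrays are those of both groups, so a difference between the groups enters each value, and the order is a description with no test. H2-Q8, of the class I histocompatibility family, whose near-identical members a probe may not separate, had a log2 fold change of -0.63 (SE 0.11, adjusted p = 0.032 in limma) and Scg5, which encodes a secretory chaperone, -0.66 (SE 0.13, adjusted p = 0.048). Of the other caveolae genes, Cavin1 stood at rank 169 with 0.82, and the values were 0.61 for Cavin3, 0.59 for Cav1, 0.46 for Ehd2, -0.08 for Pacsin2 and -0.49 for Cav2.

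The 9 tested probes of the caveolae genes gave 18 groups of 4 values, each from L63RhoA or EV. Of these groups, 0 had a single array past Dixon's 95% limit. The rule was applied to these probes alone and not to whole arrays. On the largest pattern within the groups, L63RhoA replicate 1 scored -17.4, against 4.56 to 6.76 in the other L63RhoA arrays.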
